A study of Mus musculus with 4 samples.

Results

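Passenger strands are the arm of a microRNA (miRNA) hairpin that is usually found at the lower level. Here they are the 115 assays whose names end in # among 750 miRNA assays. The RNA came from mouse synovium, the lining tissue of joints. The older miRNA nomenclature marks this arm with a star, which the assay names write as #. Of these assays, 64 carry a mouse name (mmu), 37 a human name (hsa) and 14 a rat name (rno), and all were run on mouse RNA. All 115 lie on panel B, one of 2 panels that together fill 8 chips of a TaqMan real-time PCR system. A partner assay for the guide, the other arm, was found by name for 108 of them, either on panel A or on panel B.

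The arthritic group was 2 pools of synovium from around the tibiotalar (ankle) joint of C57BL/6J mice at day 10 of K/BxN serum transfer arthritis, labelled as peak inflammation, with 10 mice in each pool. The non-arthritic group was 2 pools of the same tissue and strain labelled day 0, with 3 mice in each. In this model, serum of arthritic K/BxN mice is given to healthy recipients, whose joints then become inflamed. The groups thus differ in day and in mice per pool as well as in arthritis, and these cannot be told apart. Each pool was read in 2 technical wells. With 2 pools in each group, the p-values rest on the spread between pools, and an exact permutation test of a single value could not go below p = 0.333. Ct is the cycle at which the signal of a well crosses the threshold, so a lower Ct stands for more template, and 1 cycle is taken as a doubling.

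A miRNA gene is transcribed as a hairpin, and the enzymes Drosha and Dicer cut out a short duplex of both arms. An Argonaute protein keeps one strand, the guide, which pairs with messenger RNAs through its seed (bases 2 to 8), while the other strand, the passenger, is mostly broken down. Strands whose 5′ end is less tightly paired, and strands that begin with U or A, are favoured as guides. Some passenger strands are nevertheless loaded and have targets of their own. Both arms come from the same transcript in equal numbers, and strand choice and decay then set how much of each arm is left. Some guides, among them those of miR-29b and miR-16, are also made from another hairpin elsewhere in the genome, whose passenger strand has another sequence.

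Both arms of 6 hairpins are shown because the passenger strand or the difference between its arms passed a test described below. The sequences are the mouse mature miRNAs of RefSeq (assembly GRCm38.p6), also for assays with a human or rat name, and run 5′ to 3′ with the seed in capitals.
mmu-miR-29b-1-5p (passenger): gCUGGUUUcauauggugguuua
mmu-miR-29b-3p (guide): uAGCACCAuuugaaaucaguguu
mmu-miR-29a-5p (passenger): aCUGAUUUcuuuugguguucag
mmu-miR-29a-3p (guide): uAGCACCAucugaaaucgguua
mmu-miR-27a-5p (passenger): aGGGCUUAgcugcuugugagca
mmu-miR-27a-3p (guide): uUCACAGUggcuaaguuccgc
mmu-miR-99b-3p (passenger): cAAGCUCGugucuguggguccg
mmu-miR-99b-5p (guide): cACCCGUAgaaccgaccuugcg
mmu-miR-106b-3p (passenger): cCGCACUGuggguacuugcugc
mmu-miR-106b-5p (guide): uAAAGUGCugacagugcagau
mmu-miR-16-1-3p (passenger): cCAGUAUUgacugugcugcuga
mmu-miR-16-5p (guide): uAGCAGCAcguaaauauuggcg

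The passenger arm lies at chr6:31063067-31063088 for miR-29b (minus strand) and at chr6:31062711-31062732 for miR-29a (minus strand), 356 bases apart. For miR-27a it lies at chr8:84208685-84208706 (plus strand), for miR-99b at chr17:17830232-17830253 (plus strand), for miR-106b at chr5:138165746-138165767 (minus strand) and for miR-16 at chr14:61631894-61631915 (minus strand). The miR-29a and miR-29b guides share the seed AGCACCA, whereas their passenger strands have the seeds CUGAUUU and CUGGUUU. Of the 53 passengers read in at least 1 pool, 49 were matched to a RefSeq sequence, and these carry 48 different seeds. The only seed that occurred more than once was AAGCUCG, in miR-99b# and miR-99a#. The first base was U in 8 of the 49 passengers and in 29 of the 48 guides of the same hairpins. C was the first base of 16 passengers and of 6 guides. Among the 23 passengers read in all pools, U began 4 passengers and 13 of their 23 guides.

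Of the 115 passenger assays, 53 (46.1%) gave a Ct in at least 1 pool, and the share among all 750 miRNA assays was 43.3%. The other 62 gave none in any of the 8 wells. A Ct in all 4 pools was read for 23 passengers (20.0%), against 27.9% of all miRNA assays and also 20.0% of the 260 other assays of panel B. Passengers were thus read in at least 1 pool more often than the other assays of their panel (31.2%), but as often in all 4. Of the passengers with any Ct, 43.4% had one in every pool, against 64.2% for the other assays of panel B. These shares describe the assays on this panel, and no test was made of the difference.

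In arthritic pools 1 and 2, 42 and 24 passengers gave a Ct, against 46 and 42 in non-arthritic pools 1 and 2. The shares were 36.5% and 20.9% in the arthritic pools and 40.0% and 36.5% in the non-arthritic pools. Over all 750 assays they were 36.1% and 29.7% in the arthritic pools and 39.2% and 38.3% in the non-arthritic pools. The groups overlapped only at their edge, since arthritic pool 1 equalled non-arthritic pool 2. The mean was 33 ± 12.7 passengers in arthritic pools and 44 ± 2.83 in non-arthritic pools (SD, n = 2 each, exact permutation test, two-sided p = 0.667). Arthritic pool 2 stood apart in all assays: the median Ct of the panel B assays read in every pool was 16.5 and 18.4 in arthritic pools 1 and 2, against 15.5 and 15.6 in the non-arthritic pools. What part this later Ct has in the missing passengers was not tested.

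**Figure D1:**
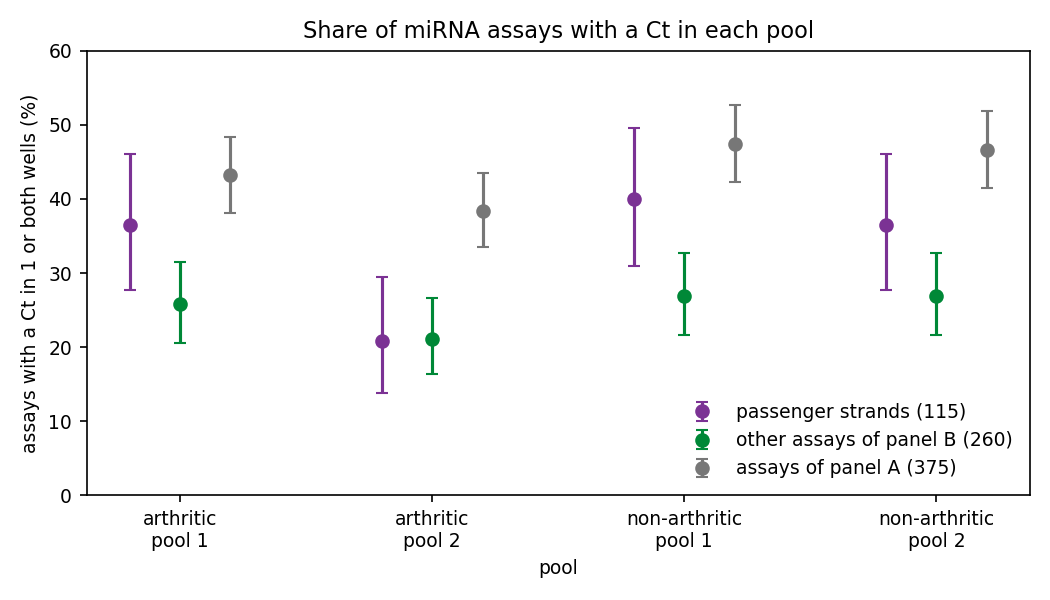
Share of assays with a Ct in 1 or both wells (vertical axis, percent) in each pool (horizontal axis), for the 115 passenger strands, the 260 other assays of panel B and the 375 assays of panel A. Points are shares and bars are exact 95% binomial intervals, which cover counting error over assays only; passengers stood at 20.9% in arthritic pool 2 and between 36.5% and 40.0% in the other 3 pools.

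When read, passengers came up late. Their median Ct was 21.8 and 22.7 in arthritic pools 1 and 2, against 21.1 and 20.6 in the non-arthritic pools. For the other assays of panel B it was 16.7 and 17.8 in the arthritic pools, against 17 and 16.3 in the non-arthritic pools. A Ct of 24 or more was found for 16 of 42 and 9 of 24 passengers in the arthritic pools, against 13 of 46 and 10 of 42 in the non-arthritic pools. No Ct above 26.997 was recorded in the series. Both wells gave a Ct for 35 of 42 and 22 of 24 passengers in the arthritic pools, against 35 of 46 and 37 of 42 in the non-arthritic pools. Where both wells had a Ct, they differed with an SD of 1.17 and 0.494 cycles in the arthritic pools and of 1.13 and 0.608 cycles in the non-arthritic pools.

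Passengers read in some pools only fell into a few patterns. A Ct in every pool but arthritic pool 2 was found for 12 of 115 passengers (10.4%), and for 4.8% of all miRNA assays. These were rno-miR-7#, rno-miR-7a#, rno-miR-204#, rno-miR-99a#, hsa-miR-26b#, hsa-miR-23a#, hsa-miR-136#, mmu-miR-376b#, mmu-miR-20a#, mmu-miR-31#, mmu-miR-879# and mmu-miR-30b#. A Ct in arthritic pool 1 and not in arthritic pool 2 was found for 18 of 115 passengers. It was found for 55 of all 750 miRNA assays and for 14 of the 260 other assays of panel B. The opposite was found for 0 passengers, for 7 of the 750 and for 2 of the 260. By contrast, mmu-miR-21# gave 26 in 1 well of arthritic pool 1, 25.1 in arthritic pool 2 and 21.7 in 1 well of non-arthritic pool 1. It gave no Ct in non-arthritic pool 2. Its guide is one of the best known miRNAs induced in inflamed tissue. Here that guide had a log2 difference of 2.95 ± 0.89 (± SE), arthritic minus non-arthritic, that did not pass (limma, adjusted p = 0.0651).

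**Figure D2:**
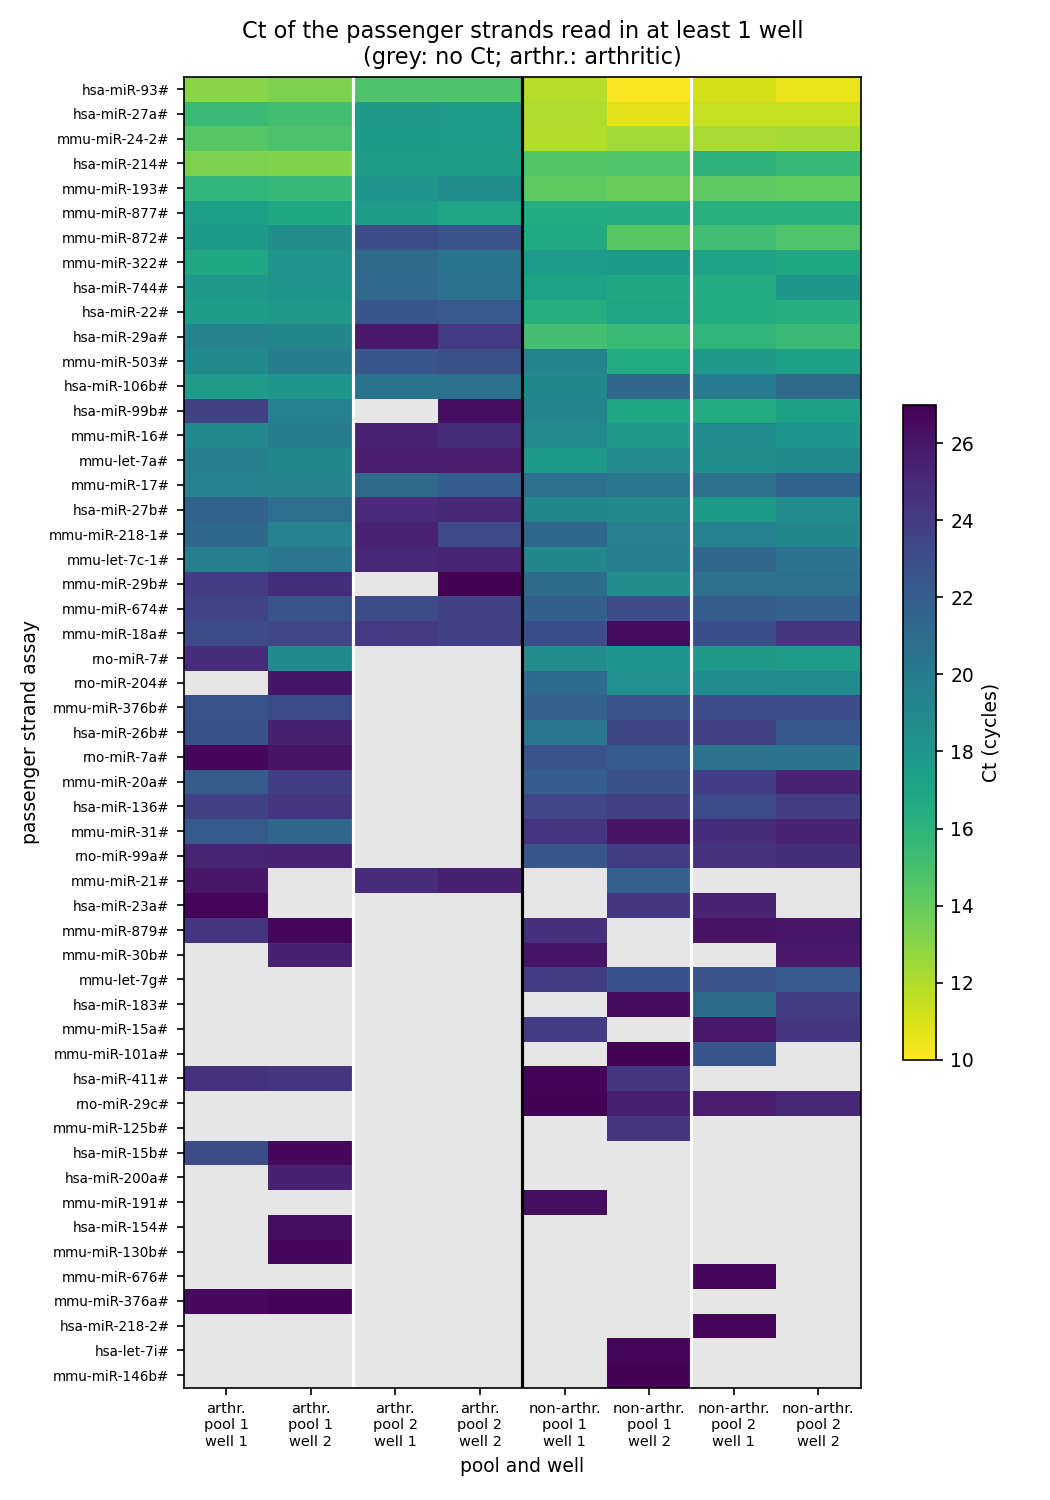
Ct in cycles (colour) of the 53 passenger strands with any Ct (rows) in the wells of each pool (columns), arthritic pools left of non-arthritic pools and grey where there was no Ct. The upper 23 rows have a Ct in every pool, and 12 of the rows under them are grey in arthritic pool 2 alone.

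Both non-arthritic pools and no arthritic well gave a Ct for 5 passengers (4.35%), against 3.6% of all miRNA assays. These were mmu-let-7g#, mmu-miR-15a#, mmu-miR-101a#, hsa-miR-183# and rno-miR-29c#. mmu-let-7g#, from the let-7 family that holds back growth genes, gave 23.3 and 22.4 in the non-arthritic pools, with a Ct in all 4 of their wells. rno-miR-29c# also gave a Ct in all 4 non-arthritic wells, with pool values of 26.2 and 25.3. The other 3 lacked a Ct in at least 1 non-arthritic well: mmu-miR-15a# gave 24 and 25.1, hsa-miR-183# 26.4 and 22.4, and mmu-miR-101a# 27 and 22.5. The opposite pattern, both arthritic pools and no non-arthritic well, was found for 0 passengers and for 0.533% of all assays. Most of these Ct values lie within a few cycles of the highest recorded, so that a missing Ct can stand for a small difference.

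Of the guides of these 5 passengers, 1 shared the pattern. The guides let-7g, miR-15a and miR-29c gave a Ct in every pool, and none of these guides passed the test (limma, adjusted p = 0.256, 0.0744 and 0.438). The guide miR-101a did share it, since no arthritic pool gave a Ct and both non-arthritic pools read it at 22.1. The guide miR-183, from a cluster known from sensory organs, gave no Ct in any pool.

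Assays of one passenger under several species names did not read alike. hsa-miR-136# gave 24 in arthritic pool 1 and no Ct in arthritic pool 2, against 23.6 and 23.6 in the non-arthritic pools, while mmu-miR-136# gave none in any pool. mmu-miR-20a# gave 22.9 in arthritic pool 1 and no Ct in arthritic pool 2, against 22.3 and 24.6 in the non-arthritic pools, and rno-miR-20a# gave none. mmu-miR-376a# gave 26.7 in arthritic pool 1 alone and hsa-miR-376a# none. mmu-miR-125b# was read in 1 well, at 24.5 in non-arthritic pool 1, and rno-miR-125b# in none. Whether the assays of a pair target the same bases was not tested.

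The 23 passengers read in all pools were compared between the groups as levels. A level, in log2 units, is found by subtracting an assay's Ct in a pool from the median Ct, in the same pool and panel, of the miRNA assays read in every pool. It therefore corrects for the late Ct of arthritic pool 2 as a whole. Of the 23, 5 passed an adjusted p of 0.05 (limma over all 209 assays read in every pool, Benjamini-Hochberg adjustment), while 21.5% of the 209 assays passed. 1 passenger rose and 4 fell, where 9.57% of all assays rose and 12% fell. The share of passengers that passed is thus close to the background. At an unadjusted p under 0.05, 10 of the 23 passed. The median log2 difference of the 23 passengers was -1.20, against 0.19 over all 209 assays and 0.36 over the 52 other assays of panel B. Levels are centred on the medians of these same assays, passengers included, so the median over all 209 lies near 0 by construction. With a Ct of 24 or more as missing, the median was 0.08 over the 16 passengers still tested, against 0.46 over all assays still tested. That limit left out miR-16#, miR-27b#, miR-29b#, miR-99b#, miR-29a#, let-7a# and let-7c-1#, which came late in arthritic pool 2. All of these had negative log2 differences, so the limit raises the passengers' median by its construction. With arthritic pool 2 left out the passengers' median was -0.13, and with arthritic pool 1 left out -2.04, so that 1 pool decided most of its size. In 14 of 23 passengers the groups did not overlap, against 71.3% of all assays.

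The passenger of miR-29b, an arm opposite a guide known for repressing collagen messenger RNAs, had levels of -7.89 and -8.53 in the arthritic pools and -4.29 and -5.05 in the non-arthritic pools. Both arthritic pools lay below both non-arthritic pools, and it fell by 3.54 ± 0.77 log2 units (± SE), which is 11.7-fold (limma, adjusted p = 0.0301). In arthritic pool 2 it was read in 1 well only, at a Ct of 26.9. The passenger of miR-29a, from the same chromosomal pair, had levels of -2.75 and -6.54 in the arthritic pools and 0.25 and 0.00 in the non-arthritic pools. It fell by 4.78 ± 1.31 log2 units (limma, adjusted p = 0.0492), and its arthritic pools were 3.79 log2 units apart. With arthritic pool 1 left out its log2 difference was -6.67, and with arthritic pool 2 left out -2.88. The call was lost with the mean of the panel (-4.34, limma, adjusted p = 0.104) and with a Ct required in both wells of every pool (-4.61, limma, adjusted p = 0.0516). The rat-named assay of miR-29b-1# and the human-named assay of miR-29b-2# gave no Ct in any pool. The mouse-named miR-29b# was assigned here to the miR-29b-1 hairpin, which the unread rat assay names as well. Whether these 2 assays target the same bases was not tested.

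The passenger of miR-27a, which lies in a cluster with miR-23a and miR-24-2, was one of the best read passengers, at a Ct of 15.3 and 17.7 in the arthritic pools against 11.4 and 11.5 in the non-arthritic pools. Its levels were 1.26 and 0.70 in the arthritic pools and 4.18 and 4.16 in the non-arthritic pools, without overlap. It fell by 3.19 ± 0.73 log2 units, which is 9.14-fold (limma, adjusted p = 0.0319). With the median of each chip in place of that of the panel the log2 difference was -1.31 and did not pass (limma, adjusted p = 0.310). The passenger of miR-99b, whose guide belongs to a family known to repress mTOR, had levels of -5.11 and -7.87 in the arthritic pools and -2.62 and -1.29 in the non-arthritic pools. It fell by 4.53 ± 1.13 log2 units, which is 23.2-fold (limma, adjusted p = 0.0390). With the median of each chip the log2 difference was -2.01 (limma, adjusted p = 0.145), and with arthritic pool 1 left out it was -5.91, with arthritic pool 2 left out -3.16. In arthritic pool 2 it was read in 1 well only, and its wells in arthritic pool 1 differed, at 23.7 and 19.5. Both passengers had lower levels in each arthritic pool than in each non-arthritic pool.

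The passenger of miR-106b, from a hairpin in an intron of the replication gene Mcm7, was the only one that rose. Its levels were -1.32 and -2.12 in the arthritic pools and -4.69 and -4.95 in the non-arthritic pools, without overlap. It rose by 3.10 ± 0.75 log2 units, which is 8.56-fold (limma, adjusted p = 0.0373), but with U6 alone in place of the panel median the difference was 1.12 with adjusted p = 0.716. miR-93#, which lies 210 bases from miR-106b# by start coordinate, had levels of 3.31 and 3.67 in the arthritic pools and 4.56 and 4.84 in the non-arthritic pools. Its log2 difference was -1.20 ± 0.73 and did not pass (limma, adjusted p = 0.254). The passengers of miR-17 and miR-18a, members of the proliferation-linked miR-17-92 cluster and neighbours on chromosome 14, had log2 differences of 2.21 ± 0.73 and 2.46 ± 0.86, both without overlap and both short of the threshold (limma, adjusted p = 0.0764 and 0.0823).

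Leaving out a pool leaves its group with 1 pool, which is then assumed to vary like the pools of the other group. Without arthritic pool 1, 16 passed, and without arthritic pool 2, 8 passed, with the spread taken from the closer non-arthritic pools and the 5 calls among them. With non-arthritic pool 1 or non-arthritic pool 2 left out, the spread came from the wider arthritic pools alone, and 0 of the 23 passed, with 2 and 3 at an unadjusted p under 0.05. The log2 differences stayed large in these fits, at -3.18 and -3.20 for miR-27a#, -4.65 and -4.90 for miR-29a#, -3.16 and -3.93 for miR-29b#, -5.20 and -3.87 for miR-99b# and 3.22 and 2.97 for miR-106b#, so that the lost calls do not show that the differences rest on those pools. Without limma's sharing of spread across assays 0 passed, with 5 at an unadjusted p under 0.05. The direction of the 5 named calls was the same in each alternative that could be run. The split between rises and falls was 0 to 6 with U6 alone and 0 to 4 with U6, snoRNA135 and snoRNA202. It was 1 to 1 both with the mean of the panel and with the median per chip. None of the 5 was among the calls with the median per chip, which were miR-214# and miR-24-2#.

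**Figure D3:**
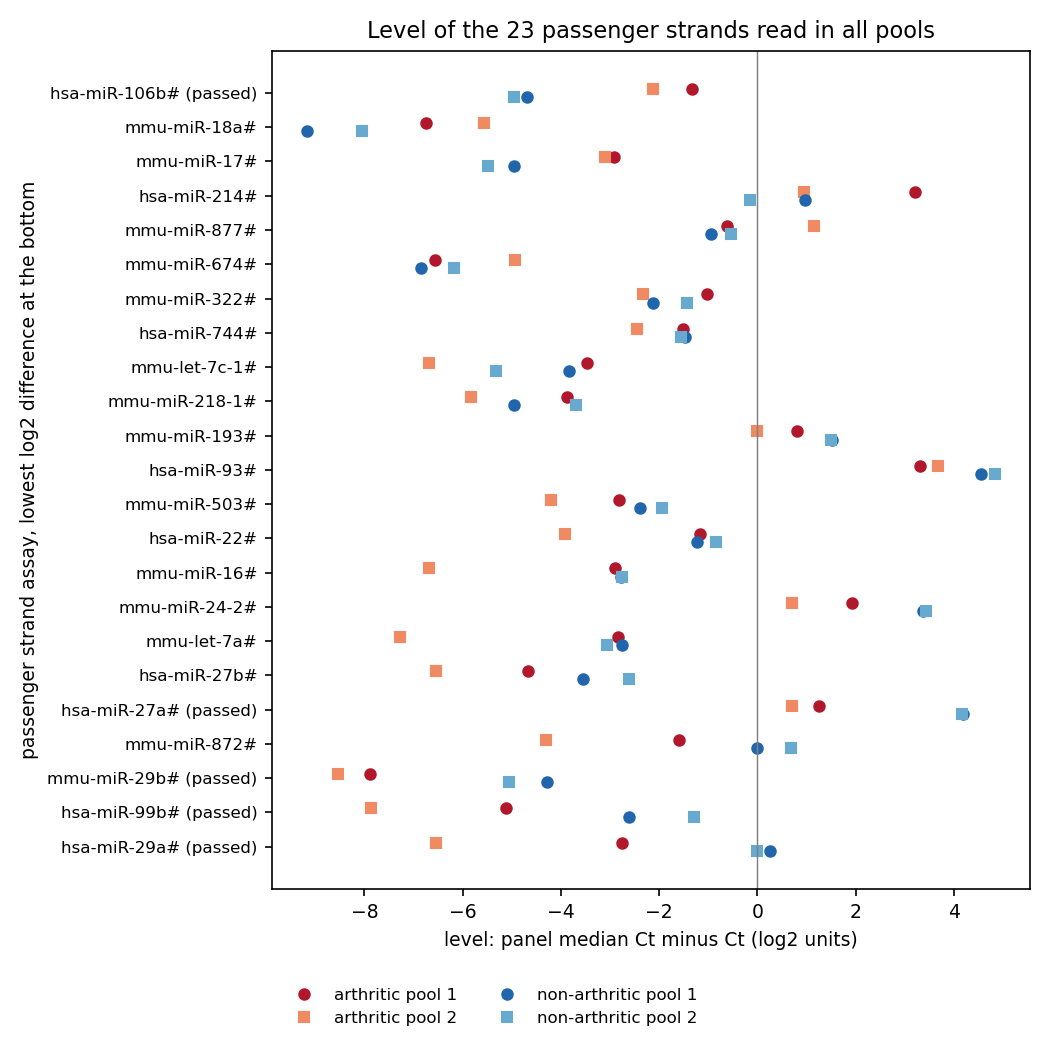
Level (horizontal axis, log2 units) of the 23 passenger strands read in all pools (rows, ordered by log2 difference), with 1 point for each pool, arthritic pools above non-arthritic pools in each row. The arthritic points of miR-29a#, miR-99b#, miR-29b# and miR-27a# lie left of their non-arthritic points and those of miR-106b# lie right.

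The highest non-arthritic levels among the 23 belonged to miR-93#, miR-27a#, miR-24-2#, miR-193#, miR-214#, miR-872#, miR-29a# and miR-877#. miR-24-2#, the neighbour of miR-27a#, had levels of 1.92 and 0.71 in the arthritic pools and 3.36 and 3.42 in the non-arthritic pools. Its groups did not overlap, and its log2 difference of -2.07 ± 0.80 did not pass (limma, adjusted p = 0.102). With the median of each chip it was -3.004 and passed (limma, adjusted p = 0.0424). miR-193# had levels of 0.81 and 0.00 in the arthritic pools and 1.51 and 1.49 in the non-arthritic pools, also without overlap (log2 difference -1.09 ± 0.75). miR-872# had levels of -1.60 and -4.29 in the arthritic pools and 0.00 and 0.69 in the non-arthritic pools. It showed a large log2 difference, -3.29 ± 1.07, that did not pass (limma, adjusted p = 0.0748), with the arthritic pools 2.69 log2 units apart.

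The remaining passengers of this group, miR-214# and miR-877#, had positive log2 differences. miR-214#, from a hairpin known for its expression in fibroblast-like cells, had levels of 3.20 and 0.94 in the arthritic pools and 0.96 and -0.16 in the non-arthritic pools. The groups overlapped, and the log2 difference of 1.67 ± 1.02 did not pass (limma, adjusted p = 0.256). It did pass with the median of each chip, at 3.55 (limma, adjusted p = 0.0375), and without arthritic pool 2, at 2.80 (limma, adjusted p = 0.0122). miR-877#, from a hairpin spliced out as a short intron of Abcf1, had levels of -0.63 and 1.15 in the arthritic pools and -0.95 and -0.54 in the non-arthritic pools, with overlap (log2 difference 1.00 ± 0.89). With U6 alone the differences were negative, at -0.30 for miR-214# and -0.97 for miR-877#.

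Passengers varied more between the arthritic pools than between the non-arthritic pools. The median difference between the pools of a group was 1.63 log2 units in arthritic and 0.44 in non-arthritic synovium over the 23 passengers. For the other miRNA assays of the fit it was 1.35 in arthritic and 0.53 in non-arthritic synovium. The spread of the passengers was thus of the same order as that of the other assays. With a Ct of 24 or more counted as missing, the passengers' values were 0.85 in arthritic and 0.92 in non-arthritic synovium over 16 passengers. That limit leaves out the passengers that came late in arthritic pool 2, so it can lower the arthritic spread by its construction. The arthritic pools lay farthest apart for let-7a#, miR-16# and miR-29a#, by 4.43, 3.80 and 3.79 log2 units, and the Ct of these passengers in arthritic pool 2 was 25.7, 25.1 and 25.

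The Ct of both arms was set side by side for the 108 pairs. Both arms gave a Ct in at least 1 pool in 42 pairs, the guide alone in 41, the passenger alone in 8 and neither in 17. The assays of both arms differ in primers, so that a Ct gap between them measures the assays as well as the RNA. The guide had the lower Ct in every pool that read both arms in 36 of the 42 pairs, and the passenger did in 3. In the arthritic pools the passenger had the lower Ct in 3 of 30 and 2 of 17 pairs read, against 4 of 36 and 3 of 32 in the non-arthritic pools.

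The 3 pairs with the passenger ahead throughout were miR-503, miR-322 and miR-17. The passenger arms of miR-503 and miR-322 lie 282 bases apart by start coordinate on the X chromosome, and both miRNAs are known for slowing the cell cycle. miR-503# gave 19.3 and 22.6 in the arthritic pools, against 17.9 and 17.6 in the non-arthritic pools. Its guide gave 22.3 in arthritic pool 1 and no Ct in arthritic pool 2, against 24.2 and 24.3 in the non-arthritic pools. Its passenger was thus ahead in arthritic pool 1 and in both non-arthritic pools. miR-322# gave 17.5 and 20.7 in the arthritic pools, against 17.7 and 17.1 in the non-arthritic pools, and its guide gave 19.7 in arthritic pool 1 and none in arthritic pool 2, against 19.9 and 22.1 in the non-arthritic pools. Another assay of the miR-322 guide gave 23.2 in arthritic pool 1, against 21.1 and 20.9 in the non-arthritic pools, also later than the passenger. miR-17# gave 19.4 and 21.5 in the arthritic pools, against 20.5 and 21.1 in the non-arthritic pools, while its guide was read in 1 well alone, at 26.9 in non-arthritic pool 1.

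The 8 pairs with a Ct for the passenger alone were miR-674, miR-872, miR-193, miR-376b, miR-376a, miR-879, miR-183 and miR-200a. Of these passengers, miR-193# came up earliest, at 15.7 and 18.4 in the arthritic pools against 14 and 14.2 in the non-arthritic pools. miR-674# gave 23.1 and 23.4 in the arthritic pools, against 22.4 and 21.8 in the non-arthritic pools. In these pairs the arm named as passenger was the one that was read. For miR-93, miR-136 and let-7a the order of the arms was not the same in every pool that read both. The passenger's Ct minus the guide's was -0.31 in arthritic pool 1 for miR-136, against 1.09 and 2.22 in the non-arthritic pools. For let-7a it was 1.61 and -0.76 in the arthritic pools. The passenger of miR-93 gave 13.2 and 14.7 in the arthritic pools, against 11 and 10.8 in the non-arthritic pools. Its guide gave 12.3 and 15.4 in the arthritic pools, against 13.3 and 13.1 in the non-arthritic pools. miR-93# was ahead in both non-arthritic pools and in arthritic pool 2, and the guide in arthritic pool 1.

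**Figure D4:**
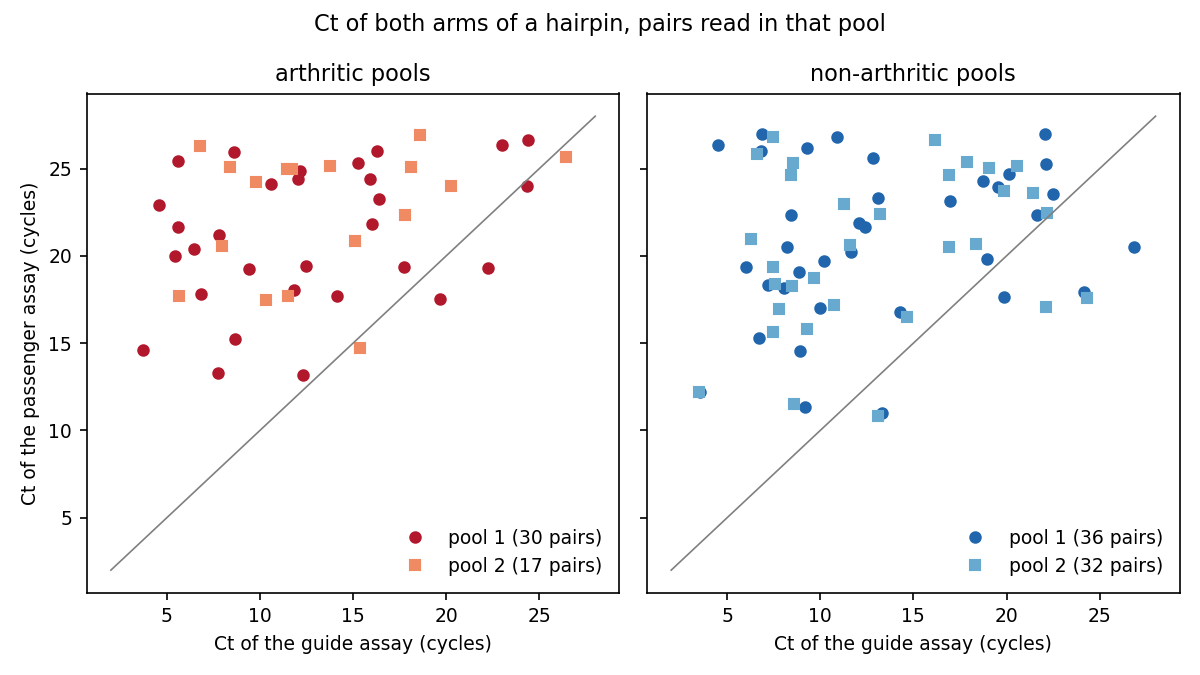
Ct of the passenger assay (vertical axis, cycles) against Ct of the guide assay (horizontal axis, cycles) for each pair with both arms read in a pool, arthritic pools left and non-arthritic pools right. The grey line marks equal Ct; 3 and 2 of the 30 and 17 points of the arthritic pools lie under it, against 4 and 3 of the 36 and 32 points of the non-arthritic pools.

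The difference between the arms, the passenger's level minus the guide's, was compared between the groups for the 15 pairs with both arms read in all pools. The medians of both panels enter this difference, except for miR-214 and miR-22, whose arms both lie on panel B. Of the 15 pairs, 2 (13.3%) passed an adjusted p of 0.05 (limma over the 15 pairs, Benjamini-Hochberg adjustment), and 6 had an unadjusted p under 0.05. The difference was lower in arthritic synovium in 13 pairs and higher in 2, with a median change of -2.06 log2 units. The median change was -0.74 with U6, snoRNA135 and snoRNA202 as the scale, -3.05 without arthritic pool 1 and -1.10 without arthritic pool 2. The groups did not overlap in 12 of the 15 pairs (80%). In 9 pairs the log2 differences of passenger and guide had opposite signs.

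The arms of miR-29b moved apart. The guide rose by 2.90 ± 0.77 log2 units (limma, adjusted p = 0.0466), with levels of -3.37 and -2.68 in the arthritic pools and -6.30 and -5.56 in the non-arthritic pools, while the passenger fell. The passenger's level minus the guide's was -4.52 and -5.85 in the arthritic pools and 2.02 and 0.50 in the non-arthritic pools. This is a change of -6.44 ± 0.93 log2 units (limma, adjusted p = 0.0420). By Ct, without any scaling, the passenger came 8.49 and 8.36 cycles after the guide in the arthritic pools, against 0.88 and 2.33 cycles in the non-arthritic pools. The groups did not overlap on either scale.

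The arms of miR-16, whose guide is known for repressing cell-cycle genes, moved closer. The guide fell by 6.43 ± 0.98 log2 units (limma, adjusted p = 0.0122), with levels of 0.09 and -2.23 in the arthritic pools and 5.46 and 5.25 in the non-arthritic pools. The passenger had levels of -2.89 and -6.69 in the arthritic pools and -2.77 and -2.75 in the non-arthritic pools, and its log2 difference of -2.03 ± 1.31 did not pass (limma, adjusted p = 0.274). The arm difference was -2.97 and -4.46 in the arthritic pools and -8.23 and -8.01 in the non-arthritic pools, a change of 4.4 ± 0.79 log2 units (limma, adjusted p = 0.0453). The guide's wells in arthritic pool 2 gave 14.3 and 22. Without the later of these wells, which is on a chip where that well read fewer assays, the change was 2.75 with adjusted p = 0.152.

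4 further pairs had an unadjusted p under 0.05 and did not pass after adjustment. They were miR-27a with a change of -3.48 ± 0.75 (limma, adjusted p = 0.0562), and miR-99b, miR-27b and miR-93 with -7.75 ± 1.93, -3.07 ± 0.83 and -2.06 ± 0.57 (limma, adjusted p = 0.0634 for each). In these 4 pairs the groups did not overlap. The guides of miR-27a and miR-27b, which have the same seed, had log2 differences of 0.28 ± 0.76 and 0.55 ± 0.73 that did not pass. The miR-106b guide rose by 5.73 ± 0.97 log2 units (limma, adjusted p = 0.0153), in the same direction as its passenger, and the arm difference of -2.63 ± 1.26 did not pass (limma, adjusted p = 0.183). The miR-18a guide also rose, by 3.17 ± 0.74 log2 units (limma, adjusted p = 0.0325), with an arm difference of -0.71 ± 0.88. Among all 60 partner guides tested, 9 rose and 8 fell, while 20 (9.57%) of all 209 assays rose and 25 (12%) fell.

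**Figure D5:**
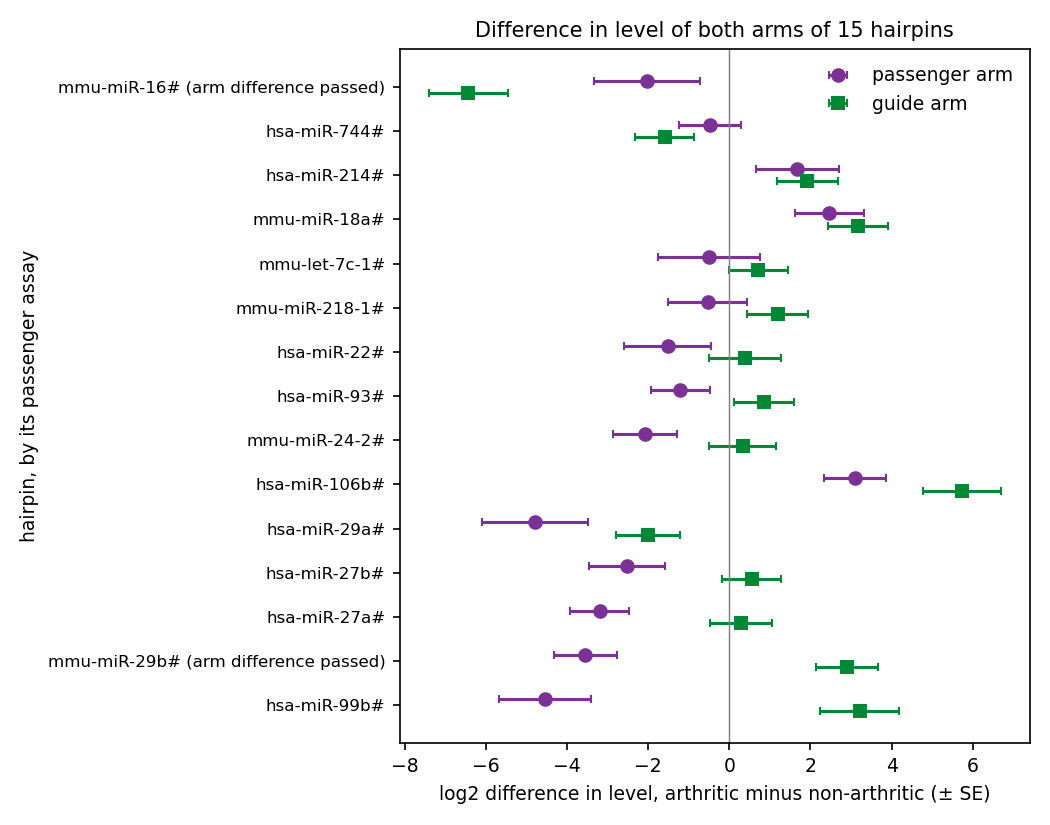
Log2 difference in level, arthritic minus non-arthritic (horizontal axis, bars are SE from limma, n = 2 pools in each group), of the passenger arm (circles) and the guide arm (squares) of 15 hairpins (rows, ordered by arm difference). The arms of miR-29b lie on opposite sides of 0, at -3.54 and 2.90, and those of miR-16 at -2.03 and -6.43.

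The same limit holds for the arms when a pool is left out. Without arthritic pool 1, 12 of the 15 pairs passed, and without arthritic pool 2, 7 passed. With either non-arthritic pool left out, and the spread from the arthritic pools alone, 0 passed, with 2 at an unadjusted p under 0.05 in each case. The changes then were -5.69 and -7.20 for miR-29b and 4.29 and 4.51 for miR-16. The direction for miR-29b and for miR-16 was the same in each alternative run.

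Markers of cell types and tissues moved between the groups, and their part in the passenger differences was not tested. In bulk tissue, fewer cells of a type and less RNA per cell cannot be told apart. Of the 4 skeletal muscle miRNAs, 2 gave a Ct in each arthritic pool and all 4 in each non-arthritic pool, and their log2 summed level was 7.0 and 6.17 in the arthritic pools and 9.07 and 10.29 in the non-arthritic pools. The arthritic sum was nearly all miR-206, at levels of 6.96 and 6.13. miR-133a fell by 7.07 log2 units (limma, adjusted p = 0.0042), with levels of 1.64 and 0.87 in the arthritic pools and 7.93 and 8.72 in the non-arthritic pools. The skeletal muscle and fibroblast lists hold assays of both panels, whose levels are centred on different medians. The mouse-named assays of miR-1 and miR-133b gave no Ct in the arthritic pools. A rat-named miR-1 assay, which is not on the list, gave 26.7 in 1 well of arthritic pool 1 and none in arthritic pool 2, while the non-arthritic pools read it at 18.2 and 15.1. The passengers rno-miR-1# and mmu-miR-133a# gave none in any pool. The log2 summed level was also lower in both arthritic pools for the endothelial list (6.68 and 7.21, against 9.12 and 9.51), the lymphoid miR-150 (5.29 and 6.04, against 7.20 and 8.12), the smooth muscle list (3.79 and 5.45, against 6.55 and 6.92) and the cartilage miR-140 (-1.54 and -3.41, against -0.59 and -0.80). It was higher in both arthritic pools for the myeloid list (5.36 and 6.76, against 4.35 and 4.08) and the fibroblast list (6.66 and 6.23, against 4.83 and 4.02). Within the fibroblast list miR-199a-3p had levels of 2.42 and -1.13 in the arthritic pools and 1.46 and 1.21 in the non-arthritic pools, a log2 difference of -0.69. For the erythroid list it was 0.98 and -0.61 in the arthritic pools and 0.81 and 1.61 in the non-arthritic pools, with miR-144 unread in every pool and miR-486 unread in the arthritic pools. Of the 4 miRNAs on the list for fibroblasts, a main cell type of the synovial lining, 4 and 3 gave a Ct in the arthritic pools and 3 in each non-arthritic pool.

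The authors' deposited table of group averages and folds lists 15 of the 23 passengers. Its log2 difference had the same sign as the one computed here for 14 of them, and miR-322#, at -0.92 in the authors' deposited table and 0.11 here, was the exception. The authors' deposited table does not list miR-29a#, miR-29b# or miR-99b#, which passed here. For miR-106b# it gives a difference of 2.41, and for miR-27a# -4.03. These are the authors' own values of the same pools and no independent measurement.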

How the data were processed

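Total RNA was extracted with a mirVana kit and 500 ng of each pool were reverse transcribed with a TaqMan kit, per the labels' protocols. The authors deposited raw Ct values (a score in cycles) of 8 chip sheets, per the file headers of a BioMark system, in which 999 stands for a well without amplification, as read from the values. The sources used here do not state how the threshold was set. The authors' deposited table gives, on a log2 scale, the average of each group and their difference, and a fold (ratio). Its normalization is likewise not stated there, and it was used only for comparison.

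Pools were grouped by their labels, whose wording treats the 2 pools of a group as biological replicates. A pool's Ct was the mean of its wells, or the Ct of the single well that had one. Levels were computed over 134 assays of panel A and 75 of panel B. The test was that of limma (version 3.58.1, R version 4.3.3), with lmFit and eBayes (two-sided, Benjamini-Hochberg adjustment at 0.05), over all 209 assays or over the 15 arm pairs. Both fits had 2 residual degrees of freedom, with a prior of 4.02 for the assays and of 1.78 for the arm pairs. Pool numbers were not used as a block.

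The members and lists were chosen with earlier results of these data known. Values in every pool are given for passengers that passed a test or whose pair did, that were read in both pools of 1 group and in no well of the other, that ranked in the 8 highest non-arthritic levels, or that came ahead of their guide. A guide was matched by the name without its suffix, first under the same species and then as mouse, human or rat. Dropping a locus number from the name, for 11 pairs, was added after the names were seen. For miR-322 the first listed of its guide assays was used in the counts. Arm names (5p or 3p) were assigned from the current nomenclature of each star name. 4 of the 53 passengers read have no sequence here. The alternatives covered scaling, wells, Ct limits, undetected values, moderation, threshold, a block and each pool left out. matplotlib 3.10.9 under Python 3.11.15 drew the plots.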

Additional observations from a re-analysis of the deposited data

How the results depend on the processing

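Against 5 of 23 passengers, 2 passed with the mean of the panel, a Ct required in both wells, the lower Ct of the wells, or a Ct of 24 or more as missing (16 tested), all among the 5. With the median per chip 2 others passed and 0 of the 5. With raw Ct and without moderation 0 passed (7 and 5 at an unadjusted p under 0.05). With undetected pools at the highest Ct 1 passed, which is not among the 23. Of the 23, 3 passed when, for arthritic pool 2, the later-listed well of chip A3 was dropped, and 9 at an adjusted p of 0.1. Leaving out each pool in turn gave 0 to 16. Against 2 arm pairs, 0 passed with the lower Ct of the wells (2 at an unadjusted p under 0.05), 1 without moderation or with a Ct of 24 or more as missing, 4 with U6, snoRNA135 and snoRNA202 or with undetected pools at the highest Ct, 5 with the mean of the panel or U6 alone, 6 at an adjusted p of 0.1, 9 with the median per chip and 11 with raw Ct. Without moderation the 1 pair was miR-93, and neither miR-29b nor miR-16 passed. With a Ct of 24 or more as missing it was miR-27a, and neither miR-29b nor miR-16 could be tested. With a Ct required in both wells 3 pairs passed, miR-16 among them, and miR-29b could not be tested. Leaving out each pool gave 0 to 12. With the pool number as a replicate block, 6 passengers and 4 pairs passed, the 5 and the 2 among them. Deviations of pools with the same number had a correlation of 0.07 over the 209 assays and 0.23 over the 23 passengers. The labels name no shared batch, so the pools are taken to share only a number. The median log2 difference of all 209 assays, 0.19 here, was -2.51 with U6 alone, -2.17 with U6, snoRNA135 and snoRNA202, -1.43 with raw Ct and 0.37 with the median per chip, and that of the 23 passengers was -3.18, -2.28, -3.08 and -0.26 in the same settings. The cause of these shifts was not tested.

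Of the 23 passengers, 13 kept the sign of their log2 difference in each setting run, and so did the arm change of 11 of 15 pairs. With U6 alone it turned to -0.97 for miR-877#, -1.22 for miR-674#, -0.30 for miR-214# and -1.86 for miR-322#. With raw Ct these were -0.87, -1.12, -0.20 and -1.76, and with U6, snoRNA135 and snoRNA202 they were -0.076, -0.33 and -0.96 for miR-877#, miR-674# and miR-322#. With the median per chip the sign turned for miR-744# (1.41), miR-22# (0.37), let-7c-1# (1.38), miR-193# (1.44) and miR-322# (-0.26). miR-218-1# turned to 0.30 with a Ct of 24 or more as missing and to 0.17 with the lower Ct of the wells. Over the fits that left out 1 pool, the log2 difference ran between -1.51 and 0.45 for miR-218-1#, -0.54 and 0.77 for miR-322#, -0.062 and 1.57 for miR-674#, -4.36 and 0.072 for let-7a#, and -2.12 and 1.12 for let-7c-1#. The arm change turned to 0.17 and 0.96 for miR-18a with U6 alone and with U6, snoRNA135 and snoRNA202, and to 0.45 for let-7c-1 with the same 3 RNAs. With the median per chip it was 0.81 for let-7c-1, 2.56 for miR-214 and 0.91 for miR-22. Over the fits without 1 pool it ran between -1.55 and 0.13 for miR-18a, -1.03 and 0.52 for miR-214, and -3.05 and 0.61 for let-7c-1.

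With the mouse-named assays alone, 22 and 15 passengers had a Ct in the arthritic pools, against 26 and 23 in the non-arthritic pools, because fewer assays were counted, and 1 passenger was ahead of its guide in arthritic pool 2. That number was also 1 with a Ct of 24 or more as missing. The spread between arthritic pools was 3.21 cycles with raw Ct and 0.85 with a Ct of 24 or more as missing, where that between non-arthritic pools was 0.92. Late Ct values limit these results: a passenger near the highest Ct has little room left to fall before it is lost.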

Other observations

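Several passengers were read in 1 pool alone. 5 of them, hsa-miR-15b#, hsa-miR-154#, mmu-miR-130b#, hsa-miR-200a# and mmu-miR-376a#, gave a Ct in arthritic pool 1 and in no other pool, as did 13 of all 750 miRNA assays. hsa-miR-15b# gave 24.8 and mmu-miR-376a# gave 26.7, each as the mean of both wells, and the other three were read in 1 well only, between 25.4 and 26.6. 6 passengers gave a Ct in 1 non-arthritic pool alone, each in 1 well only: hsa-let-7i#, mmu-miR-125b#, mmu-miR-146b#, mmu-miR-191#, mmu-miR-676# and hsa-miR-218-2#. Their Ct lay between 24.5 and 27. A Ct in 1 non-arthritic pool alone was found for 20 of all 750 miRNA assays. The partner guides of let-7i#, miR-146b#, miR-191#, miR-676# and miR-218-2# gave a Ct in every pool. The miR-146b guide, a regulator of innate immune signalling, had levels of 1.03 and 2.28 in the arthritic pools and 5.76 and 5.71 in the non-arthritic pools and fell, with a log2 difference of -4.08 (limma, adjusted p = 0.0234).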
